A study of Homo sapiens with 12 samples.

Results

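TRMT10A CLIP sites in noncoding exons are narrow called peaks of sequenced fragments (tags) of RNA crosslinked to the TRMT10A protein. How far the tags reach past a peak is not given. At each site the authors' annotation gives an exon of a transcript without a coding sequence. The sites were chosen by that annotation alone. Each distinct position and strand was counted as 1 site, and the array of ribosomal RNA genes at chr21:8205988-8446572 was left out. This gave 367 of the 5650 distinct TRMT10A sites, or 6.50% (95% Wilson interval 5.88% to 7.17%), and 5603 of the 5650 sites lie outside the array. The array itself held another 36 sites with the same annotation, at heights of 19 to 125 with a median of 109.

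All samples came from HEK293T, a human line from embryonic kidney with the large T antigen of SV40. The TRMT10A sites came from 3 CLIP-seq samples of cells that overexpressed TRMT10A, and the FTO clusters from 1 CLIP-seq sample of cells that overexpressed FTO. Both proteins were recovered on anti-Flag beads after ultraviolet crosslinking and digestion with RNase T1, so the sites belong to overexpressed proteins. m6A-seq, a pulldown of RNA fragments with an antibody against N6-methyladenosine (m6A), was made from cells given TRMT10A siRNA (2 pulldown and 2 input samples) and cells given control siRNA (2 pulldown and 2 input samples). Each table is the authors' list of called sites or peaks. None gives values per sample, so the read depth is unknown, the spread between replicates could not be measured and no difference below was tested. The file header of the TRMT10A list names a pool of unique tags, which puts the 3 samples into 1 list. The Wilson intervals cover counting error only, and neighbouring sites of 1 gene are not independent.

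TRMT10A methylates the guanosine at base 9 of tRNAs to 1-methylguanosine, and FTO is a demethylase of m6A. Noncoding exons are a mixed class. They hold long noncoding RNAs, transcribed pseudogenes and small RNAs. They also hold transcripts of protein-coding genes whose reading frame is broken or not annotated, and the exons of such transcripts are often shared with the coding mRNA of the same gene.

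Sequence around a site was taken from RefSeq promoter windows of GRCh38.p14, which reach 50 bases past the start of a gene. These windows held 30 bases around 11 of the 367 sites, and 7 of them are shown because they carry features that come up below. Each is written 5′ to 3′ on the strand of the site, with the bases of the site in capitals. They come from chr5:181191731-181191760 (minus strand), chr5:171387869-171387898 (plus), chr3:49104708-49104737 (minus), chr21:36070033-36070062 (plus), chr21:32612354-32612383 (minus), chr1:52055142-52055171 (minus) and chr11:118401626-118401655 (plus), in the order of the lines.
TRT-TGT6-1: ccggctccatagctcAggggttagagcact
NPM1: tcctgcgcggttgttCTCTGGAGCAgcgtt
QARS1: tgcaatggcggctctagacTCCCTgtcgct
CBR1: cagtctctggaaCACGCtgcggggctcccg
CFAP298-TCP10L: ctagggagcgtgggaTtccggactgtgagc
TXNDC12: gcgaactgtgtggacCgtctgctgggactc
ATP5MG: agccggcggttcggggcgacggactCTcca
The first line is the start of a tRNA gene with its site. The NPM1, QARS1 and ATP5MG sites also share bases with FTO clusters, and the CBR1 site was annotated to a transcript of the opposite strand. The last 3 lines hold GGAC, a core of the m6A consensus, read on the strand of the site only. GGAC was in 3 of these 11 windows and in 6 of the 46 windows available for TRMT10A sites of any annotation outside the array (13.0%), these 11 included. The mean content of G or C was 69.4% in the 11 windows and 66.4% in the 46. All these windows lie at or near starts of genes, so they do not stand for the sites without a window.

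The first question was which RNAs these sites are in. Most lie in protein-coding genes. By the type of the annotated transcript's gene, 273 sites (74.4%) belong to protein-coding genes, 39 (10.6%) to transcribed pseudogenes, 27 (7.36%) to long noncoding RNAs and 10 (2.72%) to antisense RNAs. A further 4 are annotated to other noncoding RNAs and 2 to snoRNAs, and 12 transcripts (3.27%) were not matched to the gene table. All 12 unmatched sites lie in protein-coding genes, among them RCC1, the chromatin-bound exchange factor of the small GTPase Ran, and SMPD4, a sphingomyelinase. The label noncoding therefore describes the transcript chosen by the annotation and, at most sites, not the gene.

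The gene at each site was then set by position, with a small RNA gene taken before its host gene. This moved 33 sites to another gene than that of the annotated transcript and gave 233 genes. Protein-coding genes took 292 sites (79.6%) in 179 genes and pseudogenes 36 sites (9.81%) in 25 genes. Long noncoding RNAs took 21 sites (5.72%) in 11 genes, and small RNA genes took 18 sites (4.90%). The 11 genes include TSNAX-DISC1 and SPECC1L-ADORA2A, read-through genes that the gene table types as long noncoding. Their sites are therefore not shown to belong to a separate long noncoding RNA. Of the 179 protein-coding genes, 137 (with 231 sites) had no TRMT10A site of another annotation class. The other 42 did, and 38 of them had sites in coding exons. A gene with a single TRMT10A site could not be among the 42, and the same count was not made for the other annotation classes. The 137 genes are therefore not shown to be bound only in noncoding transcripts.

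Strand changes some of these names. The strand of the annotated transcript's gene was known for 248 sites, and 7 of them lie on the opposite strand. All 7 lie on the strand of the gene given in the authors' peak name. Over all TRMT10A sites outside the array, 4694 of the 4694 whose peak-name gene has a known strand (100%) lie on that strand. If the peak names were given by strand, this agreement was fixed in advance, so it is no separate test of the 7 names. The highest of the 7, at chr10:17229667-17229668 on the plus strand with a height of 69, was annotated to VIM-AS1 and lies in VIM, the gene of the intermediate filament protein vimentin. The site at chr15:64156864-64156866 on the minus strand was annotated to SNX22 and lies in PPIB, a prolyl isomerase of the endoplasmic reticulum, with a height of 16. The site of CBR1, a carbonyl reductase whose sequence is given above, was annotated to CBR1-AS1 and has a height of 20. The remaining 4 lie in TBC1D14, LRP11, PEA15 and ADPGK, at heights of 16 to 27. Likewise, 7 sites annotated to the antisense RNA TALAM1 lie in MALAT1, and 3 annotated to TSIX lie in XIST.

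The height of a site is the authors' peak height, a score used here only to rank and describe sites within their list. The noncoding-exon sites had a median height of 19 (quartiles 17 and 24, range 16 to 114), and all sites outside the array had a median of 20 (quartiles 17 and 25, range 16 to 123). The medians were 20 in coding exons, 19 in 3′ UTRs, 20 in 5′ UTRs and 24 in introns. Sites were a median of 3 bases wide (range 1 to 22), as over all sites outside the array (median 3, range 1 to 94). A single base made up 23.4% of the noncoding-exon sites and 23.1% of all sites outside the array. The list ends at a height of 16, where 70 of the 367 sites (19.1%) and 15.7% of all sites outside the array lie.

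The highest median among the kinds of RNA was that of small RNA genes. Small RNA sites had a median of 29 (range 17 to 114, 18 sites), pseudogene sites 21 (16 to 55, 36 sites), sites in long noncoding RNAs 18 (16 to 36, 21 sites) and sites in protein-coding genes 19 (16 to 69, 292 sites). A height of at least 40 was reached by 15 of the 367 sites (4.09%), against 6.14% of all sites outside the array and 19.2% of those in introns. Of these 15 sites, 7 were among the 18 in small RNA genes (38.9%). The other 8 lie in VIM, the pseudogene RPSAP9, ACTG1, the pseudogene ACTG1P4, SON, MAZ, NT5C3B and PPP2R1A.

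**Figure D1:**
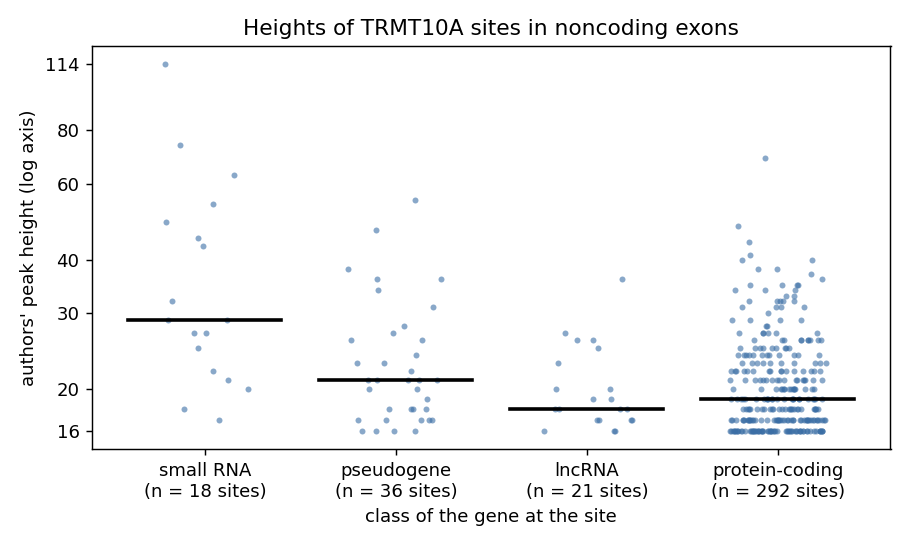
Authors' peak height (log axis) of the 367 TRMT10A sites in noncoding exons, by the class of the gene at the site; each point is 1 site and the black bars are medians. The small RNA sites have the highest median, 29, and the highest site, at 114, and all 4 classes overlap.

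The 18 small RNA sites lie in 7 tRNA genes, 5 small Cajal body RNAs, 2 snoRNA genes, 2 pseudogenes of 5S ribosomal RNA and 2 pseudogenes of spliceosomal RNAs. They were placed by position alone, because the strand of these genes was not known. A site may therefore lie on the strand opposite to the small RNA named. The highest of all 367 sites was in SNORD3A, a gene of the U3 snoRNA that guides early cleavage of the ribosomal RNA precursor. It lies at chr17:19188122-19188125 on the plus strand and has a height of 114. If the gene lies on that strand, the site covers bases 107 to 110 of its 217 bases. It also shares a base with an FTO cluster of 1202 conversion events. The other snoRNA site was in SNORA58, inside MRPL3, with a height of 49. U3 has several near-identical gene copies, and the placement of reads from such copies was not stated.

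The small Cajal body RNAs guide modification of spliceosomal RNAs. SCARNA13 (in SNHG10) and SCARNA7 (in KPNA4) each had a site of height 29. SCARNA12 (in PHB2) had a site of height 27 that shares a base with an FTO cluster of 2 events. SCARNA10 (in NCAPD2) was at 25 and SCARNA5 (in ATG16L1) at 17. All 5 therefore lie between 17 and 29, below both snoRNA sites. The pseudogene sites ran from 21 in RNA5SP284 to 54 in RNA5SP257 for 5S ribosomal RNA. Those of spliceosomal RNAs were 27 in RNU2-52P and 45 in RNU6-48P.

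The 7 tRNA sites are annotated to exons of 3 long noncoding RNA genes and of the protein-coding gene CTC1, a telomere maintenance factor, because the tRNA genes lie within them. Their heights ran from 18 to 74, with a median of 32. Positions are counted from the 5′ end of the tRNA gene on the strand of the site. The gene table gives no strand for tRNA genes, so these counts hold if the gene lies on that strand. TRP-CGG1-3, a proline tRNA gene inside LINC00324, had the highest site, 74, at bases 24 to 31 of 72 (chr17:8222874-8222881, minus strand). TRE-TTC4-1, a glutamate tRNA gene inside LINC01783, had a height of 63 at bases 54 to 55 of 72 (chr1:16535296-16535297, minus strand). Of the 7 sites, 3 therefore reach 40 or more, the third being in TRT-TGT6-1.

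TRT-TGT6-1 is a threonine tRNA gene at chr5:181191687-181191758, inside LINC01962. Its site, with a height of 43, is the single base 14 of 72, an adenine. The sequence above starts 2 bases before this gene, and base 9 of the gene is also an adenine, not the guanine that the known tRNA reaction of TRMT10A uses. The letters TTGT, a uridine before the anticodon TGT, occur once on the strand of the site, with the anticodon at bases 34 to 36, and do not occur on the other strand. The letters GTTCGA, searched first for the same purpose of finding the gene's strand, are on neither strand. The lower tRNA sites were TRT-AGT1-2 with a height of 32 at base 60 of 74, TRI-AAT4-1 with 22 at bases 52 to 54 of 74, TRS-AGA2-6 with 20 at base 17 of 82 and TRW-CCA1-1 with 18 at bases 65 to 71 of 72. Of the 7 sites, 3 end before base 34, at base 14, at base 17 and at bases 24 to 31, and the other 4 start at base 52 or later. None of the 7 sites covers base 9 and none shares a base with an FTO cluster. Each site is a called peak 1 to 8 bases wide, and the tags around it may reach base 9. Contact of TRMT10A with base 9 was therefore not measured. Whether TRMT10A met the mature tRNA, its precursor or the host transcript cannot be told from a site's position, and tRNA genes with the same sequence share reads.

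**Figure D2:**
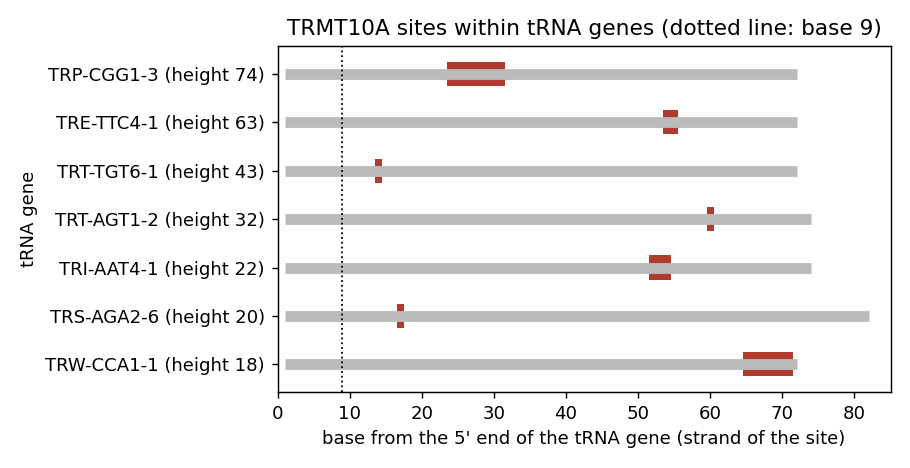
Position of the TRMT10A sites (red) along the 7 tRNA genes (grey), in bases from the 5′ end on the strand of the site, ordered by the authors' peak height. The sites run from base 14 to base 71, and none reaches the dotted line at base 9. The reach of the tags around each site is unknown.

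The highest pseudogene sites lie in copies of ribosomal protein, actin and histone genes. RPSAP9, a copy of the ribosomal protein gene RPSA, had 3 sites with heights of 55, 38 and 34 at chr9:76398952-76399521. ACTG1P4, a copy of the gamma-actin gene, had a height of 47, close to the height of 48 in ACTG1 itself at chr17:81510324. RPL13AP6 and H2BP1, copies of genes of a ribosomal protein and a histone, each had a site at 36. Such copies can closely resemble their parent genes, so a read from the parent mRNA may have been placed on the copy. The sequences of copies and parents were not compared, nor were the places of the ACTG1P4 and ACTG1 sites. Other pseudogenes with 3 sites were UBBP4 (17 to 28), HNRNPA1P10 (17 to 24) and PIPSL (16 to 21). None of the 36 pseudogene sites lay in a differential m6A peak (0%, interval up to 9.64%), which does not separate them from the 7.17% of all sites outside the array.

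MALAT1 had the most sites among long noncoding RNAs, followed by XIST. MALAT1, an abundant nuclear RNA of speckles, had 7 sites with heights of 36, 27, 26, 23, 18, 18 and 18 between chr11:65499675 and chr11:65503777. XIST, which coats the silenced X chromosome, had 4 sites with heights of 25, 20, 17 and 17. NEAT1, the scaffold RNA of paraspeckles, had sites at 26 and 20, and NORAD, a cytoplasmic decoy of Pumilio proteins, had 1 site at 17. A list of 11 architectural and abundant long noncoding RNAs, which does not include XIST, had such a site in 3 members, MALAT1, NEAT1 and NORAD. After sites at small RNA genes had been counted for those RNAs, such as the SCARNA13 site in SNHG10, 1 of 32 host genes of snoRNAs had a site, SNHG15, at 17. None of 87 host genes of microRNAs had one. A TRMT10A site of any annotation was found in 4 of the 11, 1 of the 32 and 1 of the 87. Of the 18349 long noncoding or antisense RNA genes in the gene table, expressed or not, 11 (0.0599%) had a noncoding-exon site and 53 (0.289%) a site of any annotation.

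In protein-coding genes the sites were spread over many genes. Of the 233 genes of any class, 171 had 1 site, 30 had 2 and 15 had 3, and 17 genes with at least 4 sites held 91 of the 367. PPP2R1A, the scaffold subunit of protein phosphatase 2A, had 8 sites with heights of 18 to 40 in 8 different exons of a 14-exon transcript. SFPQ, a nuclear RNA-binding protein of paraspeckles, had 8 sites (17 to 38), of which 3 lie in exon 1. Neither gene had a TRMT10A site of another annotation class. MAZ, a zinc finger transcription factor, had 7 sites (18 to 41) and another 5 sites annotated as coding exon.

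Other genes with many sites served a range of cell functions. ARHGDIA had 6 sites (19 to 37), and CCT3, a subunit of the cytosolic chaperonin, had 6 (19 to 35). CSNK1D, a casein kinase (17 to 27), HDGF, a growth factor that binds chromatin (19 to 35), and MTCH1, an insertase of the outer mitochondrial membrane (16 to 27), each had 5. The segregase adaptor NPLOC4 (16 to 29) and SON, a splicing factor of nuclear speckles (16 to 44), also had 5 each. In NPLOC4 and HDGF all 5 sites lie in the last exon of the transcript, and in SON all 5 lie in exon 3 of 13. Chromosome 1 held 73 of the 367 sites (19.9%), against 11.9% of all sites outside the array. Genes with many sites add to the 73, among them SFPQ with 8, CCT3 with 6 and HDGF with 5.

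**Figure D3:**
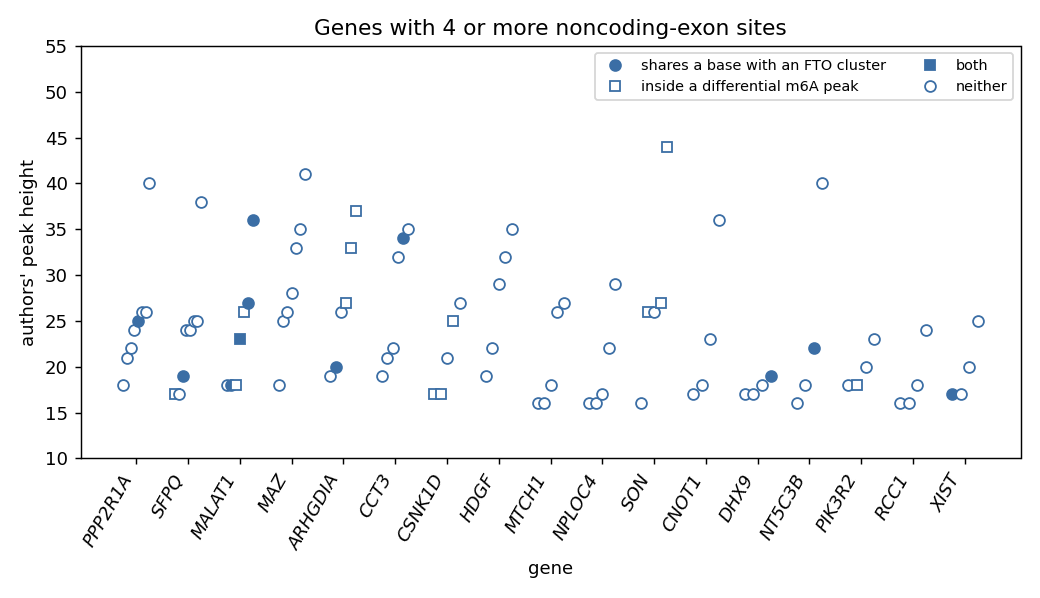
Authors' peak height (linear axis from 10) of each noncoding-exon site in the 17 genes with at least 4 such sites; each symbol is 1 site, filled where it shares a base with an FTO cluster and square where it lies in a differential m6A peak. The sites of PPP2R1A run from 18 to 40 and those of MALAT1 from 18 to 36, and MALAT1 is the gene with the most filled symbols, 4.

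The next comparison asked how often the sites coincide with FTO clusters, counted where the 2 intervals on 1 strand have a base in common. This was so for 43 of the 367 sites (11.7%, interval 8.82% to 15.4%), in 39 genes, against 12.0% of all sites outside the array. The shares were 13.2% in coding exons, 9.26% in 3′ UTRs, 6.70% in 5′ UTRs and 10.8% in introns. The noncoding-exon share lies close to the share over all sites. Shared sites had a median height of 22 and the others 19, and over all sites outside the array the medians were 23 and 19.

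By kind of RNA, 6 of the 21 sites in long noncoding RNAs were shared (28.6%, interval 13.8% to 50.0%), as were 7 of the 36 in pseudogenes (19.4%, 9.75% to 35.0%). In protein-coding genes it was 28 of 292 (9.59%, 6.72% to 13.5%), and in small RNA genes 2 of 18. The interval for long noncoding RNAs lies just above that for protein-coding genes, and 4 of its 6 sites are in MALAT1. At those 4, with heights of 36, 27, 23 and 18, the FTO clusters held 19, 10, 7 and 13 conversion events, a count that the list gives per cluster. The other 2 were in XIST, with a height of 17 and 19 events, and in NEAT1, with a height of 20 and 4 events. Over the 43 shared sites the FTO clusters held 2 to 1202 events, with a median of 3.

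The authors' FTO list gives its own location for each cluster. At the 28 shared sites of protein-coding genes it was coding sequence for 16, 3′ UTR for 7 and 5′ UTR for 1, and no location was given for 4. So 24 of the 28 are placed within an mRNA by the other table. The shared site of ACTG1, gamma-actin, had a height of 48 and an FTO cluster of 7 events in the 3′ UTR. PTGES3, a cochaperone of HSP90, had a height of 35 and 3 events in the coding sequence, and APLP2, a relative of the amyloid precursor protein, had 29 and 12 events in the 3′ UTR. NPM1, the nucleolar protein nucleophosmin, had 31 and 3 events in the 5′ UTR, at the sequence given above. QARS1, the glutaminyl-tRNA synthetase, had 23 and 2 events at its first exon. Among pseudogenes, RPSAP9 had 38 and 6 events, ACTG1P4 47 and 3, H2BP1 36 and 3, and RPL13AP5 31 and 4.

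**Figure D4:**
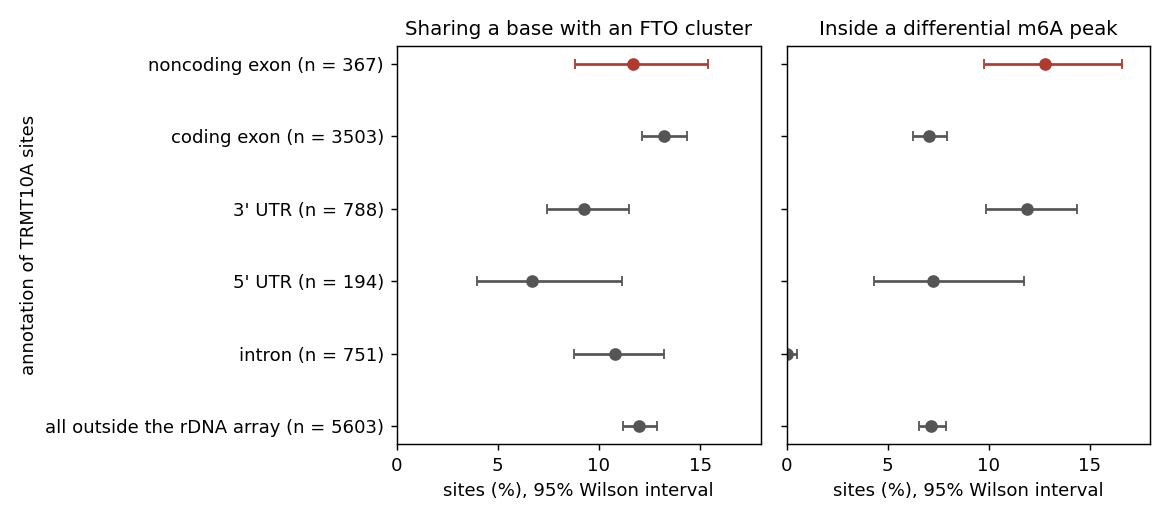
Percent of TRMT10A sites that share a base with an FTO cluster (left) and that lie in a differential m6A peak (right), by annotation; points are shares and bars 95% Wilson intervals, which cover counting error only. Noncoding-exon sites (red, 11.7% and 12.8%) lie close to all sites for FTO (12.0%) and above all sites for m6A (7.17%, or 8.29% without introns, whose sites hardly meet exon blocks).

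The last comparison placed the sites in m6A peaks that differed between cells given TRMT10A siRNA and cells given control siRNA. The authors' deposited table lists 2023 such peaks, with the largest adjusted p at 0.0501, and its header does not state which group is the numerator of the log2 fold change. Values are therefore given as positive or negative only. An exon block of a differential peak held 47 of the 367 sites (12.8%, interval 9.77% to 16.6%), against 7.17% of all sites outside the array. The share was 7.05% in coding exons (6.25% to 7.95%), 11.9% in 3′ UTRs, and 7.22% in 5′ UTRs. The 751 intron sites could hardly meet an exon block, and none did, with 12 (1.60%) inside the whole span of a peak. Without the intron sites, the share over all sites outside the array was 8.29%. Of the 47, 41 were in protein-coding genes (14.0% of 292) and 6 in long noncoding RNAs (of 21), and none in pseudogenes or small RNA genes.

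The share was also taken by the place of a site in its transcript. Among sites in transcripts of several exons, 160 of 318 noncoding-exon sites (50.3%) lay in the last exon. The share was 27.7% of all sites outside the array with such an annotation, 10.8% of coding-exon sites and 99.9% of 3′ UTR sites. A transcript without a coding sequence has no UTR class, so neither of the last 2 shares is a like comparison. In the last exon, 18.1% of the noncoding-exon sites lay in a differential m6A peak (12.9% to 24.8%), and in earlier exons 8.86% did (5.35% to 14.3%), and these intervals overlap. For coding exons the shares were 20.5% in the last exon and 4.87% in earlier ones, and for all sites 15.0% and 5.13%. The part of exon position in the m6A share was not tested. FTO clusters were shared by 7.50% of noncoding-exon sites in the last exon (4.34% to 12.7%) and 11.4% of those in earlier exons (7.33% to 17.3%), also with overlapping intervals. For all sites outside the array these FTO shares were 10.3% and 12.6%, and for coding exons 14.0% and 13.2%.

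The 47 sites lie in 34 peaks of 33 genes. Of these peaks, 25 are positive and 9 negative in the authors' deposited table (73.5% positive), with log2 fold changes of -0.81 to 1.68. Of all 286 peaks that hold a TRMT10A site outside the array, 228 are positive in the authors' deposited table (79.7%). Peaks were then counted by gene, under the gene's own name or a known synonym. In the authors' deposited table, 31 of the 233 genes (13.3%) had only positive differential peaks, against 15.5% of the 2667 genes with a TRMT10A site. Only negative peaks were listed for 15 (6.44%) in the authors' deposited table, against 5.29%, and 4 genes had both signs. These counts by name leave out LINC00205 and CFAP298-TCP10L. Their sites lie in positive peaks that the authors' deposited table lists under names not matched to these 2 genes.

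Among peaks that hold a noncoding-exon site, the largest positive value was at SMARCA5, a chromatin remodeling ATPase. It was 1.68 on the log2 scale, with an adjusted p of 0.0355, in the authors' deposited table. The TRMT10A site there, with a height of 23, is annotated to the antisense gene SMARCA5-AS1 and named for SMARCA5 in the peak list. PIK3R2, a regulatory subunit of phosphoinositide 3-kinase, had 1.37 (adjusted p 1.91e-08) in the authors' deposited table, at 1 of its 4 sites. FAAP100, of the Fanconi anemia core complex, IP6K2, an inositol hexakisphosphate kinase, and CTBP1, a transcriptional corepressor, had 0.91, 0.90 and 0.87 in the authors' deposited table, each at 1 site. ARHGDIA had 2 positive peaks in the authors' deposited table, 0.63 over its highest site and 0.56 over another 2 of its 6 sites. PPIB had 0.48 (adjusted p 7.94e-90) in the authors' deposited table, at the site annotated to SNX22. CFAP298-TCP10L, a read-through gene whose window above holds GGAC, has its site in a peak of 0.63 (adjusted p 0.0132). The authors' deposited table lists that peak under C21orf59.

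Among peaks that hold a noncoding-exon site, the negative values reached a smaller size than the positive ones. Other peaks of the same genes, which hold no such site, went further in the authors' deposited table. They reached -1.79 in COMMD4, -1.02 in XIST and 1.94 in B3GAT3. Among the peaks with a site, LINC02210, a long noncoding RNA, had the lowest log2 fold change, -0.81 (adjusted p 0.00263), in the authors' deposited table. Its site has a height of 16. MCM2, a subunit of the replicative helicase, had -0.46 in the authors' deposited table, the splicing kinase SRPK1 had -0.40 over 2 of its 3 sites, and SFPQ had -0.37 over 1 of its 8. SON had -0.23 (adjusted p 8.71e-05) in the authors' deposited table, over 3 sites with heights of 44, 27 and 26. Genes with many sites thus appear with either sign.

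Long noncoding RNAs held 4 of these 34 peaks. In the authors' deposited table the MALAT1 peak at chr11:65500009-65500908 stood at 0.255 on the log2 scale (adjusted p 2.95e-05), and it holds 3 of the 7 MALAT1 sites, with heights of 26, 23 and 18. NORAD had 0.42 (adjusted p 0.00525) and LINC00205 0.32 (adjusted p 0.0398) in the authors' deposited table, each at 1 site, and LINC02210 is given above. An FTO cluster and a differential m6A peak coincided at 2 of the 367 sites (0.545%), against 0.750% of all sites outside the array. They were the MALAT1 site of height 23 and the site of height 31 in SLC3A2, the heavy chain of amino acid transporters, whose m6A peak had a log2 fold change of 0.485 in the authors' deposited table.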

How the data were processed

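The values start from 3 tables made by the authors from HEK293T libraries. The submitters' processing notes name hg38 and DESeq2 with neither version nor role. Names of aligner and peak callers were not given in the sources used here. Per the file headers, the deposited TRMT10A list holds pooled unique tags, annotated by HOMER's annotatePeaks.pl. Its score is the authors' peak height, and a p-value (at most 0.0494) stands inside each deposited peak name, which is text of another kind. The deposited FTO table gives a count of conversion events per cluster, per the file headers; whether its starts count from 0 or 1 is not stated, so a share of sites that touch a cluster by 1 base is uncertain. The deposited m6A table gives a log2 fold change, log10 p-values and a fold enrichment ratio per peak, per the file headers.

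Lines with the same position and strand were merged (473 lines to 367 sites). A site took the small RNA gene at its position, else the pseudogene of its transcript, else the gene in its peak name, else the gene of the transcript. Gene types and names came from a GRCh38.p14 table, strands and sequences from RefSeq promoter windows of that assembly. Overlaps with FTO clusters and m6A peaks needed at least 1 base on the same strand. Small RNA genes were matched by position without regard to strand, which was not known for them. Simulated intervals planted over the sites, on the strand of each site, were all recovered. That check covers the overlap code only and did not test the strand rule. Scripts ran in Python 3.11.15 with pandas 2.3.3, numpy 2.4.6, matplotlib 3.10.9 and scipy 1.17.1.

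The sites, gene lists and alternatives were chosen with earlier results of these data known. Named genes are those of the 15 highest sites, genes with at least 3 sites, genes of up to 20 FTO-shared sites by height, genes of sites in m6A peaks, small RNA genes, and up to 6 members by height of each list. LRP11, TBC1D14, PEA15, ADPGK, CBR1, TXNDC12, ATP5MG, RPL13AP5 and the unmatched SMPD4 and RCC1 were named for strand, sequence or matching. Base composition at site ends was planned and not run, since no genome was used here.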

Additional observations from a re-analysis of the deposited data

How the results depend on the processing

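The count of 367 sites was 473 by deposited lines, 403 with the ribosomal array kept in and 366 at a p-value of at most 0.01. It was 177 at a height of at least 20 and 99 when the position had to lie in a gene that is not protein-coding. With the assigned gene not protein-coding, a setting added after seeing the data, there were 75 sites with a median height of 21. Their FTO share was 20.0% (15 sites, 4 of them in MALAT1), against 12.0% of all sites outside the array. The median height was 19 or 20 under the other 5 settings tried, and the median width was 2 at a height of at least 20. The FTO share was 27.2% with a gap of up to 100 bases, against 25.9% of all sites outside the array, and 3.27% with at least 5 conversion events, against 3.77%. It was 10.6% to 15.3% under the other 4 settings, and at a height of at least 20 the 15.3% stood against 16.4% of all sites. The count of 47 sites in differential m6A peaks was 47 by whole peak spans, 50 with the gap and 2 where the log2 fold change reached 1 in size. The causes of these shifts were not tested, beyond the smaller or wider sets that each setting makes. No paired analysis was possible because the tables hold no values per replicate, and leaving out a replicate was not possible for the same reason. Read depth is unknown.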
